A study of Mus musculus with 8 samples.

Results

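Maf, Batf, Irf4, Stat3, Il21 and Bcl6 were followed across 4 classes of colonic CD4 T cells and 4 groups of mice. They are 6 of the 31053 gene rows in the count tables, chosen by name, and their values were read from those rows in each of 8 libraries. The levels rest on 20742 CD4 T cells of the 27420 cells in the authors' cell list. Of these T cells, 4011 were classed as Th17, 3454 as Foxp3-positive, 2218 as Tfh-like and 11059 as other T cells.

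The cells came from the lamina propria of the colon, the connective tissue under the gut epithelium, of C57BL/6 mice aged 10 to 12 weeks, and were enriched for CD4+ cells on magnetic columns. Mice differed in genotype, being either wildtype or carriers of the RORgtS182A substitution (S203AKI in the sample titles), which alters 1 amino acid of a transcription factor. They also differed in treatment. Treated mice drank 2% dextran sulfate sodium (DSS), a detergent-like polymer that injures the colonic epithelium, for 7 days and plain water for 3 days, and untreated mice drank plain water throughout. All mice were killed on day 10. Each of the 4 combinations of genotype and treatment held 2 libraries, which are independent biological replicates per the labels. Because the mutation is a substitution, transcript counts do not check the genotype.

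STAT3 is the transcription factor that relays interleukin-6, interleukin-21 and interleukin-23 signals to the nucleus, where it drives Il21 and Bcl6 in activated helper T cells. BATF and IRF4 bind DNA together and open sites that STAT3 then uses in Th17 cells, the interleukin-17 producing helper cells of the gut wall. MAF acts in Th17, follicular helper and intestinal regulatory T cells and promotes Il21 and Il10. BCL6 is the lineage-defining repressor of follicular helper T cells (Tfh), and interleukin-21 is the cytokine those cells give to B cells.

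Libraries held between 34497509 and 46960005 unique molecular identifiers (UMIs, each marking 1 captured transcript), and the CD4 T cells of a library held between 6180093 and 14933828. Levels are given as CPM, a gene's UMIs per 1000000 UMIs of the cells summed. Any 2 libraries shared 0 to 9 kept barcodes. The Th17 share of the CD4 T cells ran from 8.90% to 35.0%, with its lowest and highest value in the 2 DSS-treated mutant libraries. The Foxp3-positive share was 6.84% to 10.4% in the 4 untreated libraries and 16.5% to 25.6% in the 4 DSS-treated ones. A T cell cluster led by A630095E13Rik and Pbsn, with the heat-shock genes Hspa1a and Hspa1b among its 10 leading genes (the Pbsn cluster below), held 21.0% and 11.8% of the CD4 T cells in the untreated mutant libraries and 1.46% to 6.42% in the other 6. Its leading genes also included Tgm4 and Svs5, and 35.8% of its cells came from untreated mutant replicate 1. Whether RNA from other cells contributed to this cluster was not tested. The 5 stress genes listed (Hspa1a, Hspa1b, Hspb1, Dnajb1, Hsph1) summed to 3723 and 2027 CPM in the untreated mutants and to between 476.2 and 1119 CPM elsewhere. The levels of Il21, Maf and Batf by group are given below with and without that cluster.

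A cell was classed as Foxp3-positive with at least 1 UMI of Foxp3, the defining factor of regulatory T cells. Otherwise it was classed as Th17 with at least 2 UMIs summed over 6 Th17 genes, among them Il17a, Il17f, Il22, Il23r and Ccr6. It was Tfh-like with at least 2 UMIs over Cxcr5, Pdcd1, Izumo1r, Tox2, Ascl2 and Sostdc1, and the rest were other T cells. None of the 6 genes was used in a gate. These classes are ranges of a count and not sorted types: 49.8% of the Foxp3-positive cells had exactly 1 Foxp3 UMI, and 15.2% of the Th17 and 49.9% of the Tfh-like cells sat at the minimum of 2. Of the Foxp3-positive cells, 16.5% also passed the Th17 gate and 31.9% also passed the Tfh-like gate. Among the Th17 cells, 12.8% also passed the Tfh-like gate. Deeper cells pass a gate more easily, and median UMIs per cell were 2609 in Th17, 3356.5 in Foxp3-positive, 2912 in Tfh-like and 2055 in other T cells. Shares of cells are also given at a fixed depth, although the classes themselves still rest on the full counts of each cell.

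Genes kept out of the gates were used to check the class names. The gates and lists were chosen with earlier results of these data known, so the check is not independent of them. Against other T cells, Th17 cells were higher in 6 of 6 such Th17 genes (Il1r1, Rora, Tmem176a, Tmem176b, Ltb4r1, Cxcr6) and Foxp3-positive cells in 6 of 6 regulatory genes (Ikzf2, Il2ra, Ctla4, Tnfrsf4, Tnfrsf18, Capg). Tfh-like cells were higher in 4 of the 5 follicular genes that passed the low-count filter (Cd200, Sh2d1a, Slamf6, Tox), and the call was not made for Icos. Genes of other classes were called higher too. Against other T cells, Tfh-like cells were higher in the regulatory genes Ikzf2 and Tnfrsf4, and Th17 cells in Ctla4 and Capg and in the follicular gene Icos. Foxp3-positive cells were higher in 3 of 6 Th17 genes (Il1r1, Rora, Ltb4r1) and in the follicular genes Tox and Icos. Icos was lower in Tfh-like than in Th17 cells.

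Classes were compared within libraries, by edgeR's quasi-likelihood test on UMIs summed per library and class with the library as a term and Benjamini-Hochberg adjustment over 8678 genes. A gene is called at an adjusted p below 0.05, and fold changes are log2 values with their standard errors (SE). Against other T cells, 4 of the 6 genes were called in Th17 cells, 3 higher and 1 lower, where 21.9% of all genes were called (10.9% higher, 11.0% lower). In Foxp3-positive cells 4 of 6 were called, 2 in each direction, beside 43.9% of all genes (21.5% higher, 22.3% lower), a share that leaves little to read from the count. In Tfh-like cells 4 of 6 were called, 3 higher and 1 lower, beside 19.5% (8.62% higher, 10.9% lower). Between Th17 and Foxp3-positive cells 2 of 6 were called, both higher in Th17 cells, beside 31.6% (16.7% higher, 14.9% lower). Between Tfh-like and Th17 cells 5 of 6 were called, 3 higher and 2 lower, beside 27.4% (13.2% higher, 14.2% lower). Scaling by library totals instead of TMM moved the median of all genes to 0.126 in Foxp3-positive against other T cells, from -0.004, and Irf4 and Stat3 were then also called there. In Th17 against Foxp3-positive cells it moved the median to -0.091, from 0.007. The CPM levels and the orders of classes below are scaled by totals and the tests by TMM, so small differences can disagree between them.

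**Figure D1:**
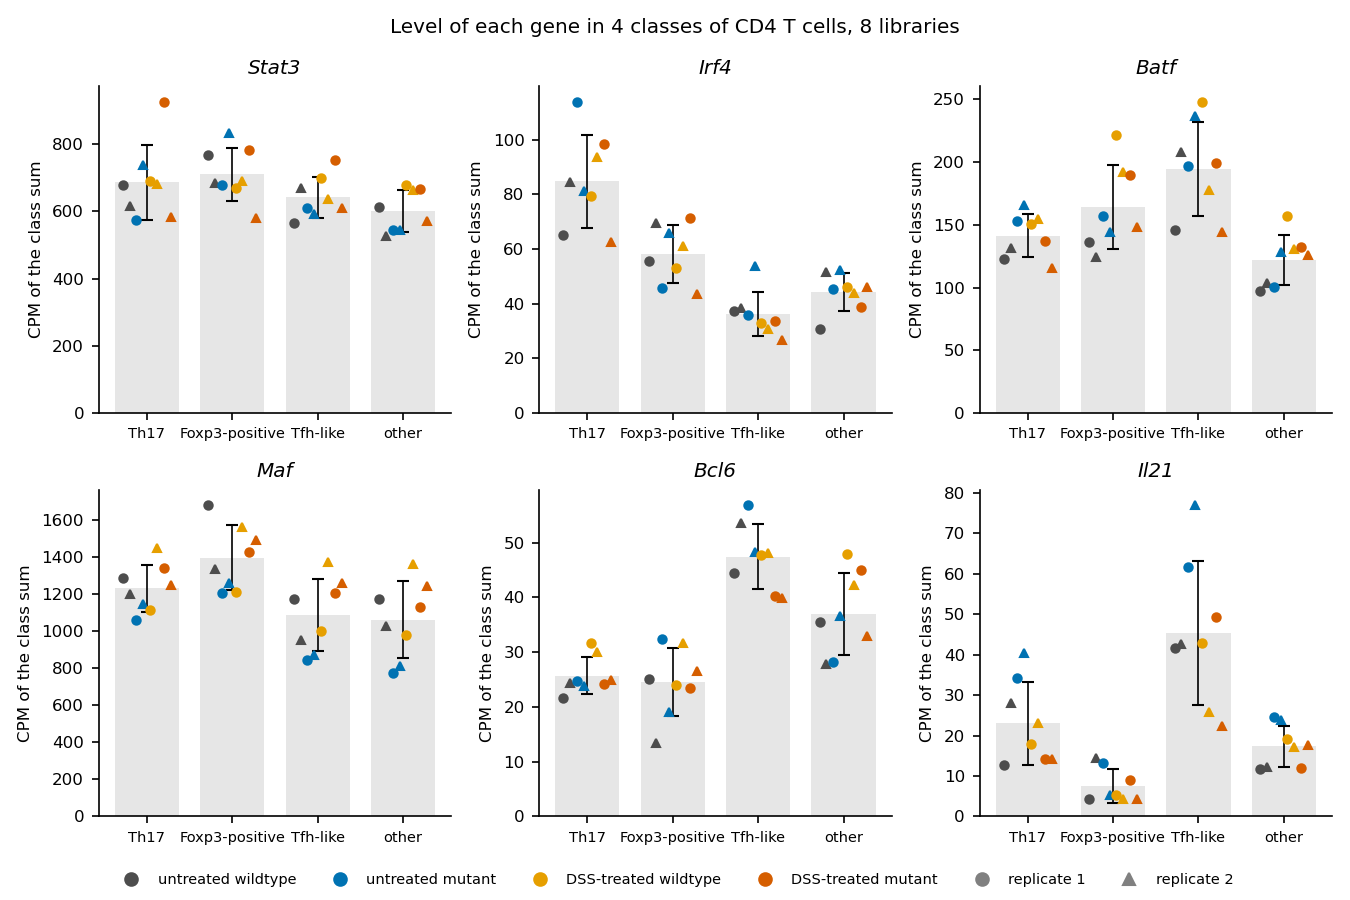
Level of each gene (y axis, CPM of the summed UMIs) in the 4 classes of CD4 T cells (x axis), with 1 point per library coloured by group, bars for the mean over 8 libraries and error bars for 1 SD. Irf4 stands highest in Th17 cells and Il21 in Tfh-like cells in 8 of 8 libraries each, and Maf stands highest in Foxp3-positive cells in 8 of 8.

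Stat3 was spread almost evenly over the class means, although its medians in the T cell clusters ran from 429 to 965 CPM. Its level was 687 ± 113 CPM (SD, n = 8) in Th17 cells, 711 ± 79.2 in Foxp3-positive, 642 ± 61.9 in Tfh-like and 601 ± 62.4 in other T cells. These ranges overlapped for every pair of classes, although Th17 cells exceeded other T cells in each of the 8 libraries, at a median ratio of 1.08. The difference from other T cells was 0.15 ± 0.05 (SE; edgeR adjusted p = 0.0348) for Th17 cells, and DESeq2 did not make that call (adjusted p = 0.056). It was also lost with gates at 1 UMI (0.07, edgeR adjusted p = 0.386), without cells rich in markers of other cell types (0.14, 0.0584), and without DSS-treated mutant replicate 1 (0.10, 0.219), untreated mutant replicate 2 (0.12, 0.102) or untreated wildtype replicate 2 (0.15, 0.0567). With narrower gates for both classes at once, Th17 from 2 of its gate genes and Tfh-like from Cxcr5 alone, each at 1 UMI, so that the other T cells changed too, the difference was -0.10 (adjusted p = 0.287). For Tfh-like cells the same difference was 0.04, with a 95% interval of -0.07 to 0.16, and for Foxp3-positive cells it was 0.10, with an interval of -0.01 to 0.21. Th17 cells were not separated from Foxp3-positive (0.06, adjusted p = 0.459) or Tfh-like cells (adjusted p = 0.155) by the test.

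Irf4 was the member most tilted to Th17 cells. IRF4 is an interferon regulatory factor family member induced by T cell receptor signalling and needed for Th17 differentiation. Th17 cells held 62.6 CPM in the lowest library, a median of 82.7 and 114 in the highest. Other T cells held 30.5, 45.6 and 52.3 CPM, and Tfh-like cells 26.8, 34.7 and 53.8 CPM, on the same scale. All 8 Th17 values therefore lay above every value of both these classes. Foxp3-positive cells, at 43.6, 58.2 and 71.2 CPM, overlapped with both sides, yet lay below the Th17 cells of the same library in 8 of 8 libraries. Irf4 was higher in Th17 cells than in other T cells by 0.86 ± 0.09 (SE; edgeR adjusted p = 2.17e-10) and higher than in Foxp3-positive cells by 0.64 ± 0.10 (adjusted p = 8.7e-07). Between Tfh-like and Th17 cells the difference was -1.24 ± 0.12 (adjusted p = 9.66e-12). With the narrower Th17 and Tfh-like gates, the differences from other and from Foxp3-positive cells were 0.25 (adjusted p = 0.141) and 0.27 (0.138) and were not called. Tfh-like cells were also called lower than other T cells, by -0.38 ± 0.12 (adjusted p = 0.0218), but 9 of 17 alternatives did not make this call, among them the fit without the Pbsn cluster, at -0.25 (adjusted p = 0.168, the highest of a range that begins at 0.000962). In that cluster the median Irf4 level over libraries was 131 CPM. Without it the difference of Th17 from other T cells was 0.89.

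Batf ran the other way from Irf4 along the Th17 to Tfh-like axis. BATF, an AP-1 family factor, pairs with JUN proteins and IRF4 and is needed for both Th17 and Tfh cells. Tfh-like cells held 145 CPM in the lowest library, a median of 198 and 248 in the highest. For Th17 cells these values were 116, 144 and 166 CPM, and for other T cells 97.2, 127 and 157. The ranges overlapped, and within libraries Tfh-like cells exceeded both other classes in 8 of 8. Batf was higher in Tfh-like than in other T cells by 0.61 ± 0.07 (SE; edgeR adjusted p = 1.31e-08) and higher than in Th17 cells by 0.45 ± 0.08 (adjusted p = 9.97e-06). Foxp3-positive cells, at 164 ± 33.4 CPM (SD, n = 8), were higher than other T cells by 0.32 ± 0.07 (adjusted p = 0.00021). The difference of Th17 from other T cells, 0.17 ± 0.07, was not called (adjusted p = 0.0906). Irf4 and Batf thus had their highest mean in different classes in these libraries.

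By CPM, Maf was highest in Foxp3-positive cells. MAF is a basic leucine zipper factor that binds near Il10, Il21 and Il4. Foxp3-positive cells held 1204 CPM in the lowest library, a median of 1381 and 1679 in the highest. Th17 cells held 1060, 1224 and 1449 CPM, Tfh-like cells 841, 1086 and 1372, and other T cells 772, 1078 and 1364. In each library the order began with Foxp3-positive cells, and other T cells were lowest in 7 of 8. Maf was higher than in other T cells by 0.27 ± 0.04 (SE; edgeR adjusted p = 2.04e-06) in Foxp3-positive and by 0.20 ± 0.04 (adjusted p = 0.00054) in Th17 cells. The Th17 call was lost with the narrower Th17 and Tfh-like gates, at 0.06 (adjusted p = 0.507). Tfh-like cells did not differ from other T cells beyond an interval of -0.11 to 0.07 and were lower than Th17 cells by -0.22 ± 0.05 (adjusted p = 0.000138). The neighbours Foxp3-positive and Th17 were not separated by the test, at -0.07 for Th17 against Foxp3-positive cells (adjusted p = 0.219).

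BCL6 and interleukin-21 are the defining repressor and the cytokine of follicular helper cells, and the bases in front of both genes are shown for that reason. Each line gives the 250 bases upstream of a RefSeq transcription start (GRCm38.p6), 5′ to 3′ on the gene's strand, with capitals marking matches to 4 motifs on either strand: STAT (TTCNNNGAA), AP-1 (TGANTCA), IRF (GAAA, any 2 bases, GAAA) and a MAF core site (TGCTGA). Il21 lies at chr3:37222759-37232636 on the minus strand and Bcl6 at chr16:23965052-23988852 on the minus strand, in the GRCm38 annotation (mm10 in the submitters' processing notes). In the same annotation the other members are Stat3 at chr11:100885098-100939540 (minus), Irf4 at chr13:30749226-30766976 (plus), Batf at chr12:85686669-85709087 (plus) and Maf at chr8:115682942-115707794 (minus). Stat5a overlaps Stat3 on the opposite strand.
Il21, chr3:37232637-37232886: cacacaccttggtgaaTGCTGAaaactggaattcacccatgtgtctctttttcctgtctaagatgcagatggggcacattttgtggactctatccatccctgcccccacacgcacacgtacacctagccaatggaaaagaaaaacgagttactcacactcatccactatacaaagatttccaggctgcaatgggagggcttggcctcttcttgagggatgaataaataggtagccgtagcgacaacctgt
Bcl6 start 1, chr16:23988853-23989102: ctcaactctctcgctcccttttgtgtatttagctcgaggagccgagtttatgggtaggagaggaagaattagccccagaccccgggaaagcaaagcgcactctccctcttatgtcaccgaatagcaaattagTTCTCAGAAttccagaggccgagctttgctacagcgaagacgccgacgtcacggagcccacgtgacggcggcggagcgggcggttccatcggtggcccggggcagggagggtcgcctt
Bcl6 start 2, chr16:23981284-23981533: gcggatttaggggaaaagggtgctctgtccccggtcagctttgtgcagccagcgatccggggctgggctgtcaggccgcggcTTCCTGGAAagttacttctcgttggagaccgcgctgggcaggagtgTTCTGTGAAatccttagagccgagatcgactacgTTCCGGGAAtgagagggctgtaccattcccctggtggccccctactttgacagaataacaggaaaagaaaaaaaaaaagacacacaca

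The Il21 window held 1 match, the MAF core site TGCTGA beginning 234 bases before the start, a motif that 16.1% of 32851 RefSeq windows of the same length hold. In Bcl6, the first start had 1 STAT match, TTCTCAGAA, beginning 118 bases before it. The second start, inside the gene, had 3: TTCCTGGAA, TTCTGTGAA and TTCCGGGAA, beginning 168, 122 and 88 bases before it. The STAT motif occurs in 7.02% of all windows, the AP-1 motif in 6.75% and the IRF motif in 2.98%. Of the other members, Batf, also highest in Tfh-like cells, and Irf4 had windows with no match, the Stat3 window held 1 MAF core site, and Maf was not in the table used. Matches describe these letters and do not show that a factor binds there.

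Bcl6 stood at 39.9 CPM in the lowest library of the Tfh-like class, at a median of 48.0 and at 56.9 in the highest. Th17 cells held 21.7, 24.5 and 31.6 CPM and Foxp3-positive cells 13.4, 24.6 and 32.4. Every Tfh-like value exceeded all values of these 2 classes, whereas other T cells, at 27.9, 36.0 and 48.0 CPM, overlapped with the Tfh-like ones. Bcl6 was higher in Tfh-like than in Th17 cells by 0.88 ± 0.12 (SE; edgeR adjusted p = 1.7e-07). Against other T cells it was lower in Th17 cells by -0.55 ± 0.11 (adjusted p = 7.54e-05) and in Foxp3-positive cells by -0.68 ± 0.11 (adjusted p = 7.07e-07). The difference of Tfh-like from other T cells was smaller, 0.33 ± 0.11 (adjusted p = 0.0226), and was present in 6 of 8 libraries. Leaving out untreated mutant replicate 1 or untreated wildtype replicate 2 ended that call, at 0.22 (adjusted p = 0.162) and 0.26 (adjusted p = 0.0922), as did leaving out the low-count filter, at 0.26 (adjusted p = 0.0891).

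Il21 was highest in Tfh-like cells and lowest in Foxp3-positive cells. Tfh-like cells held 22.4 CPM in the lowest library, a median of 42.7 and 77.0 in the highest, from 21 to 83 UMIs a library. Th17 cells held 12.6, 20.6 and 40.3 CPM, other T cells 11.6, 17.5 and 24.6, and Foxp3-positive cells 4.19, 5.28 and 14.6, the last from 3 to 23 UMIs. Tfh-like cells were highest in 8 of 8 libraries and Foxp3-positive cells lowest in 7 of 8. Il21 was higher in Tfh-like than in other T cells by 1.22 ± 0.15 (SE; edgeR adjusted p = 1.78e-08) and higher than in Th17 cells by 0.93 ± 0.16 (adjusted p = 7.41e-06). Foxp3-positive cells were lower than other T cells by -1.47 ± 0.20 (adjusted p = 5.77e-08), and Th17 cells were higher than Foxp3-positive cells by 1.76 ± 0.21 (adjusted p = 4.72e-09). Th17 and other T cells were not separated, at 0.29 with an interval of -0.02 to 0.59 (adjusted p = 0.185). Summed over libraries, Tfh-like cells supplied 29.0% of the 1259 Il21 UMIs of the CD4 T cells from 10.7% of the cells (19.1% to 39.1% of the UMIs by library), and other T cells 37.9% (26.3% to 56.6%). Tfh-like cells supplied more UMIs than other T cells in untreated wildtype replicate 2 (39 and 37) and in the untreated mutants (79 and 69 in replicate 1, 83 and 64 in replicate 2), and fewer in the other 5 libraries.

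**Figure D2:**
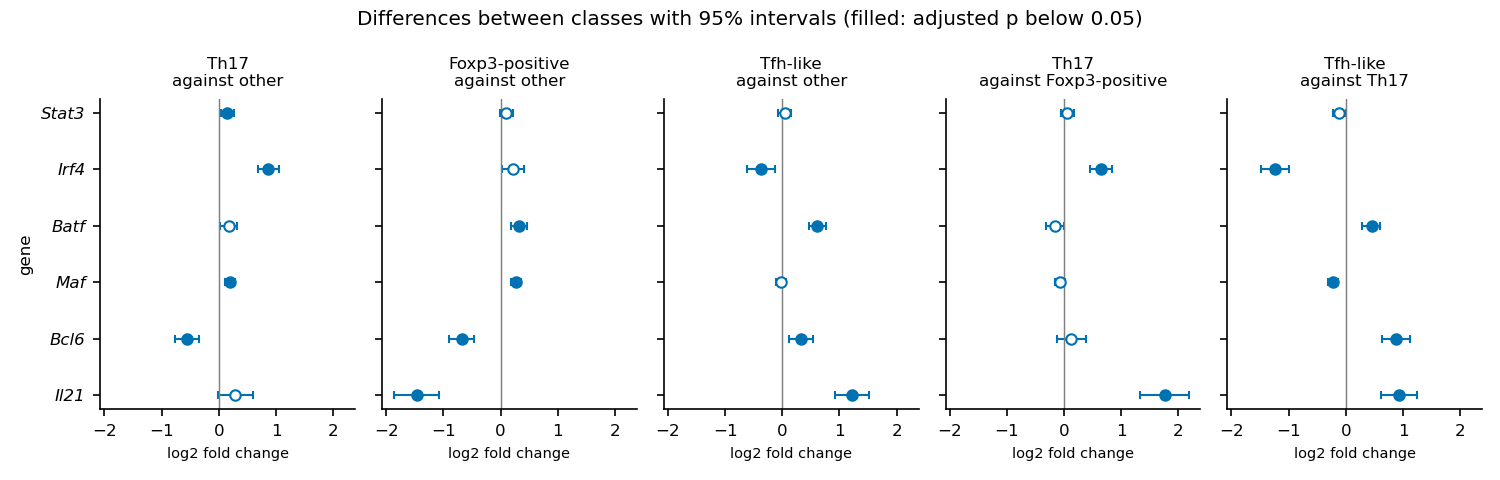
Differences between classes (x axis, log2 fold change with its 95% interval) for the 6 genes (y axis) in 5 comparisons, filled where the adjusted p is below 0.05. Irf4 lies to the right for Th17 cells (0.86 against other T cells) and to the left for Tfh-like against Th17 cells (-1.24), where Batf (0.45), Bcl6 (0.88) and Il21 (0.93) lie to the right.

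Shares of cells with a UMI were read after each cell was thinned to 1000 UMIs, which left out 20 of the Tfh-like, 78 of the Th17, 37 of the Foxp3-positive and 462 of the other T cells. An Il21 UMI was then seen in 4.63% ± 1.70 of Tfh-like cells (SD, n = 8 libraries), 2.36% ± 0.993 of Th17 cells, 1.68% ± 0.784 of other T cells and 0.711% ± 0.395 of Foxp3-positive cells. Unthinned, the shares were 11.1%, 5.79%, 3.49% and 2.31%. In macrophage-like cells, which do not make interleukin-21, the thinned share was 0.0415% ± 0.117, at a median depth of 4412.5 UMIs against 2912 in Tfh-like cells. Fibroblast-like cells, among them clusters led by Plvap and by Ccl21a, gave 0.431% ± 0.308, and the Foxp3-positive share lay within 1 SD of that. T cell genes averaged 140.3 to 173.4 CPM in these fibroblast-like clusters and 424.7 to 554.4 CPM in the T cell clusters. Whether the fibroblast-like shares are a background was not tested. An Irf4 UMI was seen in 8.28% ± 1.94 of thinned Th17 cells and 2.70% ± 0.831 of thinned Tfh-like cells, and a Bcl6 UMI in 5.38% ± 1.44 of the Tfh-like and 2.15% ± 0.428 of the Th17 cells. Macrophage-like cells gave 1.58% ± 0.712 for Irf4 and 2.30% ± 1.22 for Bcl6, the last equal within its SD to the Th17 share. Fibroblast-like cells, at a median depth of 7909 UMIs, gave 2.49% ± 0.786 for Irf4, within 1 SD of the Tfh-like share, and 1.91% ± 0.849 for Bcl6.

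Clusters of the T cells, found with the 6 genes and the gate genes left out of the clustering, are given as a description only. The cluster led by haemoglobin genes and Sostdc1, a Tfh gate gene, held 51.4% of the Tfh-like cells. It had the highest median of Batf (250.7 CPM), Bcl6 (71.1) and Il21 (70.3) among the 9 T cell clusters, and an Irf4 median of 26.6 CPM. In the cluster led by Il17a, Il17f and Cxcl3, which held 47.4% of the Th17 cells, Stat3 reached 866 CPM, Irf4 79.3 and Maf 1425. A second cluster with Il17a among its leading genes, headed by Pxdc1, was lower in each of these 3 genes, at 476, 50.1 and 1150 CPM. The 2 clusters with Foxp3 among their leading genes also differed: the one led by Foxp3, Laptm4b and Il10 had a Maf median of 1872 CPM and Stat3 of 688, and the one led by Il1rl1 and Klrg1 had 1096 and 965. Maf was lowest, at 396 CPM, in the cluster led by Igfbp4, with Lef1, a factor of naive T cells, among its leading genes. In the Pbsn cluster Il21 had a median of 57.4 CPM, second to the Sostdc1 cluster.

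**Figure D3:**
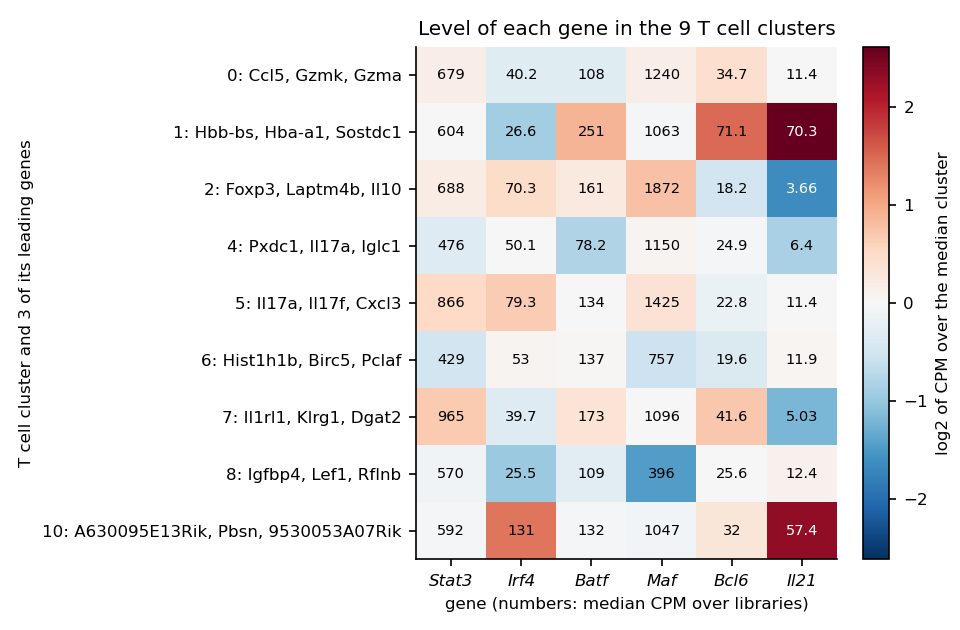
Median CPM over libraries (printed numbers) of the 6 genes (columns) in the 9 T cell clusters (rows, named by 3 of their leading genes), coloured by the log2 ratio to the median cluster. Il21 is at 70.3 in the cluster with Sostdc1, 57.4 in the Pbsn cluster and at most 12.4 in the other 7, and Irf4 is highest in the Pbsn cluster at 131.

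Genes acting around the 6 members were counted from lists, given with the median log2 fold change of each list beside the median over all genes tested, which lay between -0.004 and 0.015 in these comparisons. Against other T cells, 10.9% of all genes were called higher and 11.0% lower in Th17 cells, 21.5% higher and 22.3% lower in Foxp3-positive cells, and 8.62% higher and 10.9% lower in Tfh-like cells. Among 15 tested genes of interleukin-6, interleukin-21 and STAT3 signalling, Th17 cells against other T cells had 0 higher and 8 lower (median -0.20). The receptor chains Il6ra (-0.96) and Il6st (-0.94), the feedback inhibitor Socs3 (-0.86) and Il10 (-0.63) stood lowest. Foxp3-positive cells had 5 higher, with Il10 at 1.57 and Il6st at 1.20, and 7 lower, with Il6ra at -1.15 and Socs1 at -0.79 (median -0.08). Tfh-like cells had 4 higher, with Il6ra at 0.98 and Il6st at 0.77, and 4 lower, with Il21r at -0.47 (median 0.01). The interleukin-6 receptor chains thus differed in both directions between classes whose Stat3 levels overlapped.

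Among 14 tested partners and relatives of BATF and IRF4, Th17 cells had 2 higher than other T cells, Jun at 0.77 and Ikzf3 at 0.71, and 3 lower, including Irf8 at -0.99 and Bach2, an AP-1 site competitor, at -0.77 (median 0.08), counts near the shares of all genes called. Foxp3-positive cells had 2 higher and 9 lower, led by Bach2 at -1.07 and Fosb at -0.81 (median -0.22). Tfh-like cells had 0 higher and 6 lower, led by Fosb at -0.50 and Fosl2 at -0.33 (median -0.18), while Batf itself was higher there. Of 13 tested MAF- and BCL6-related factors, Prdm1, the antagonist of Bcl6, was higher in Th17 cells (0.76) and lower in Tfh-like cells (-0.67) than in other T cells. In Tfh-like against Th17 cells Prdm1 stood at -1.43 and Id2, an inhibitor of E proteins, at -1.14 beside Bcl6 at 0.88. In all, 4 factors of this list were higher and 4 lower in Th17 cells (median -0.11), and 1 was higher and 7 lower in Tfh-like cells (median -0.31), with Tbx21, the Th1 factor, at -0.92. In Foxp3-positive cells 4 were higher and 8 lower (median -0.19), with Tbx21 at -1.42.

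Of 12 tested Th17 genes outside the gate, 10 were higher and 0 lower in Th17 cells (median 0.57), with Ccl20 at 3.02, Il1r1 at 1.56 and Tmem176a at 1.48. Tfh-like cells had 1 higher and 6 lower (median -0.25). Of 11 tested follicular genes outside the gate, 8 were higher and 2 lower in Tfh-like cells (median 0.88), with Cd200 at 1.20, Sh2d1a at 1.12, Tox at 1.11 and Pou2af1 at 1.09. In Foxp3-positive cells the same list had 2 higher and 6 lower (median -0.35), including Cd40lg, the CD40 ligand that helps B cells, at -1.86 and Tcf7, a factor of memory-like T cells, at -1.67. Il1r1, Rora, Tmem176a and Tmem176b of the Th17 list had also served to check the class names. So had Cd200, Sh2d1a, Slamf6, Tox, Il4 and Icos of the follicular list, and the counts in part repeat that check.

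Groups of mice were compared next, first over all CD4 T cells of a library, with all 8 libraries sharing 1 estimate of the spread (11063 genes tested). DSS in mutants had 1 of the 6 genes called, Il21, where 4.99% of all genes were called. In wildtype mice DSS had 0 of 6 called, where 0.271% of all genes were called. Over both genotypes together Il21 was again the 1 of 6 called, where 19.5% of all genes were. Mutants against wildtype had 0 of 6 called among untreated mice and 0 of 6 after DSS, and 0.0% of all genes were called in each, so edgeR called no gene at all there. At an unadjusted p below 0.05 these 2 comparisons and DSS in wildtype mice had 2, 1 and 1 of the 6 genes, and DESeq2 called 0 of 6 in each.

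Il21 was highest in the untreated mutants. Over all CD4 T cells the untreated wildtype libraries had 14.0 and 20.8 CPM, the untreated mutants 32.7 and 36.6, the DSS-treated wildtype 17.3 and 15.2 and the DSS-treated mutants 14.5 and 13.1. Both untreated mutant values lay above the other 6. The untreated wildtype range took in 3 of the 4 DSS-treated values, and the DSS-treated mutants lay below the DSS-treated wildtype. In mutants Il21 fell with DSS by 1.42 ± 0.19 on the log2 scale (SE; edgeR adjusted p = 0.0128, 95% interval -1.84 to -1.0). In wildtype mice the difference with DSS was -0.17 ± 0.20 (adjusted p = 0.69). The test of the difference between these effects gave -1.25 ± 0.27 and was not called (unadjusted p = 0.000973, adjusted p = 1; 0 of 6 genes and 0.0% of all genes called, 3 of 6 at an unadjusted p below 0.05 and 0 of 6 by DESeq2). Untreated mutants against untreated wildtype stood at 0.99 ± 0.19, also not called (unadjusted p = 0.000424, adjusted p = 0.404). Without the low-count filter edgeR called both of these, at adjusted p = 0.00209 and 5.87e-05, the lowest over the alternatives, which reached 1. A block that paired wildtype and mutant libraries by their nearest title numbers, which the labels do not say mark pairs, also called the second, at 1.0 (adjusted p = 0.034), and not the first (adjusted p = 0.126).

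The call for DSS in mutants was lost without DSS-treated mutant replicate 2 (adjusted p = 0.062), untreated mutant replicate 1 (0.0855) or untreated mutant replicate 2 (0.0677), where a lone library stands for its group, with differences between -1.51 and -1.31. Over both genotypes the difference with DSS was -0.82 ± 0.23 (edgeR adjusted p = 0.0297). That call was lost without either DSS-treated mutant library, either untreated mutant library, DSS-treated wildtype replicate 2 or untreated wildtype replicate 2, with differences between -0.87 and -0.62 and adjusted p between 0.0585 and 0.1.

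Other measures moved with Il21 in the same libraries. The untreated mutants were the libraries with 21.0% and 11.8% of their CD4 T cells in the Pbsn cluster. Without that cluster the Il21 levels were 12.7 and 19.4 CPM in untreated wildtype, 27.7 and 33.8 in untreated mutant, 16.6 and 13.5 in DSS-treated wildtype and 12.7 and 12.8 in DSS-treated mutant libraries. The untreated mutants remained highest, and DSS in mutants was still called, at -1.35 (adjusted p = 0.019). The Tfh-like share of the CD4 T cells was 16.8% and 15.6% in the untreated mutants and 5.92% to 12.0% in the other 6 libraries. In a sum over all CD4 T cells, more cells of a class and more RNA per cell cannot be told apart, so levels within classes follow.

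Within classes, the untreated mutants again had the 2 highest Il21 levels in 3 of the 4. Tfh-like cells held 61.5 and 77.0 CPM there and 22.4 to 49.3 in the other 6 libraries. Th17 cells held 34.3 and 40.3 CPM there and 12.6 to 27.9 elsewhere, and other T cells 24.6 and 23.9 there and 11.6 to 19.0 elsewhere. In Foxp3-positive cells, at 13.2 and 5.20 CPM, the untreated mutants overlapped with the rest. Without the Pbsn cluster this held in 2 of the 4 classes. Tfh-like cells of the untreated mutants then had 59.5 and 81.2 CPM, against 22.5 to 49.4 elsewhere, and other T cells 23.0 and 24.0, against 10.1 to 18.9. Their Th17 cells, at 16.98 and 28.6 CPM, overlapped with the 9.17 to 23.5 of the other 6 libraries, and their Foxp3-positive cells, at 4.70 and 2.00, with the 4.11 to 11.8 elsewhere. With DSS over both genotypes, Il21 differed by -0.86 ± 0.26 in Th17 cells (edgeR adjusted p = 0.0711), by -0.80 ± 0.24 in Tfh-like cells (0.0626), by -0.86 ± 0.43 in Foxp3-positive cells (0.207) and by -0.12 ± 0.23 in other T cells (0.742). None of these passed the threshold. These differences pool genotypes whose means moved differently. In wildtype, untreated then DSS-treated means were 20.3 and 20.6 CPM in Th17 and 42.1 and 34.3 in Tfh-like cells. They were 9.38 and 4.84 in Foxp3-positive and 11.9 and 18.1 in other T cells. In mutants they were 37.3 and 14.1 in Th17 and 69.25 and 35.8 in Tfh-like cells. Foxp3-positive cells of mutants held 9.21 and 6.67 and other T cells 24.2 and 14.9.

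**Figure D4:**
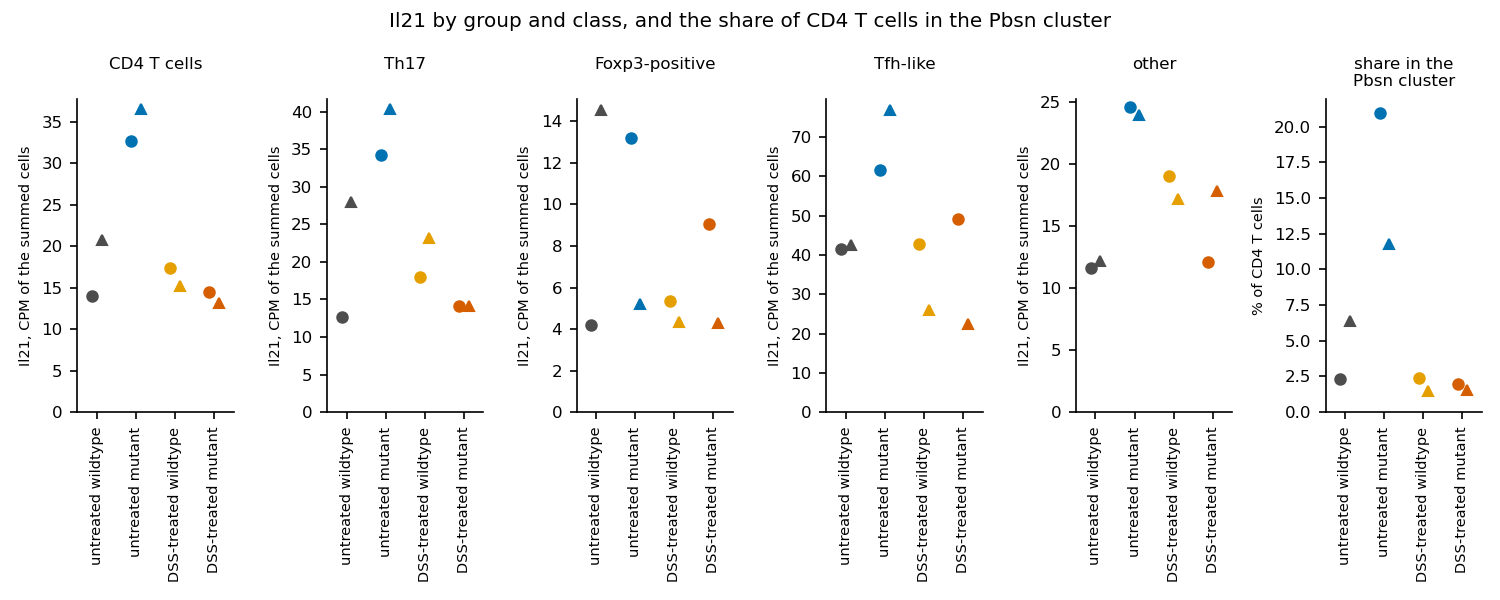
Il21 (y axis, CPM of the summed cells) by group (x axis) in all CD4 T cells and in each class, with 1 point per library (circle replicate 1, triangle replicate 2), and in the last panel the share of CD4 T cells in the Pbsn cluster. The untreated mutant libraries, at 32.7 and 36.6 CPM over all CD4 T cells, also have the highest Pbsn cluster shares, 21.0% and 11.8%.

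Maf leaned the other way without a call. Over all CD4 T cells it was at 1270 and 1101 CPM in untreated wildtype, 903 and 977 in untreated mutant, 1085 and 1431 in DSS-treated wildtype and 1282 and 1336 in DSS-treated mutant libraries. The untreated mutants were the lowest pair, and the DSS-treated wildtype range took in values of both remaining groups. Their difference from untreated wildtype was -0.33 ± 0.14 (unadjusted p = 0.0386, edgeR adjusted p = 0.931), and DSS in mutants stood at 0.39 ± 0.14 (adjusted p = 0.112). Without the low-count filter edgeR called DSS in mutants, at 0.42 (adjusted p = 0.0255, where the alternatives reached 0.36). Without the Pbsn cluster the untreated mutants held 908 and 995 CPM, still the lowest pair. Macrophages also express Maf, and the macrophage-like cluster had a median of 345 CPM. The 8 macrophage or monocyte markers summed to 77.4 to 147 CPM in the untreated mutants' T cells, 113 to 157 in untreated wildtype, 100.1 to 315 in DSS-treated wildtype and 104 to 216 in DSS-treated mutant libraries, with none of the 8 at 0, and their part in the Maf levels was not tested. Their highest sum stood in DSS-treated wildtype replicate 2, the library with the highest Maf. Without cells holding 3 or more UMIs of macrophage, dendritic or B cell markers, Maf in that library was 1439 CPM, and the untreated mutants held 897 and 981. This filter took cells unevenly. Of the other T cells it left 1152 of 1726 in that library and 754 of 1194 in DSS-treated mutant replicate 1. It left 1335 of 1447 in DSS-treated wildtype replicate 1, 1963 of 2065 in DSS-treated mutant replicate 2 and 1228 of 1409 in untreated wildtype replicate 1.

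Batf was lowest in untreated wildtype mice, at 113 and 128 CPM over all CD4 T cells. The untreated mutants had 139 and 160, the DSS-treated wildtype 186 and 157 and the DSS-treated mutants 151 and 135. DSS in wildtype mice differed by 0.44 ± 0.14 (edgeR adjusted p = 0.154) and DSS in mutants by -0.15 ± 0.14 (adjusted p = 0.529), neither called. Without the low-count filter edgeR called the first, at 0.44 (adjusted p = 0.0406, where the alternatives reached 0.511). Without the Pbsn cluster the untreated mutants held 152 and 163 CPM and the untreated wildtype 115 and 128. By class, the largest difference with DSS over both genotypes was in Foxp3-positive cells, 0.37 ± 0.13 (adjusted p = 0.0689), where untreated libraries held 124 to 157 CPM and DSS-treated ones 149 to 222. Stat3 over all CD4 T cells lay between 581 and 796 CPM in the 8 libraries, and its 4 differences between groups were from -0.01 to 0.08, with intervals reaching from -0.34 to 0.42. Irf4 lay between 41.3 and 68.2 CPM and Bcl6 between 28.6 and 38.4, with no call. Bcl6 after DSS stood at -0.28 in mutants against wildtype (unadjusted p = 0.0373, adjusted p = 1), from 36.7 and 38.4 CPM in wildtype and 32.0 and 30.7 in mutant libraries.

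**Figure D5:**
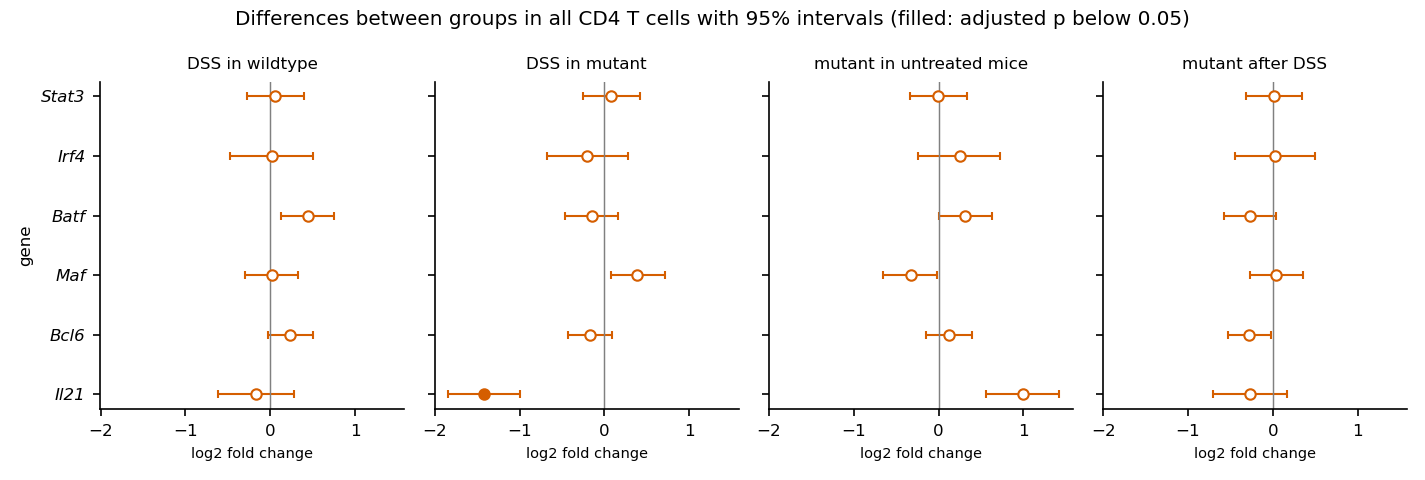
Differences between groups over all CD4 T cells (x axis, log2 fold change with its 95% interval) for the 6 genes (y axis), filled where the adjusted p is below 0.05. The 1 filled point is Il21 for DSS in mutants (-1.42), and Il21 in untreated mutants against wildtype (0.99) is not called.

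Within single classes no member was called for either factor. With DSS over both genotypes 0 of 6 were called in Th17 cells, beside 4.55% of all genes. In Foxp3-positive cells 0 of 6 were called beside 11.6%, in Tfh-like cells 0 of 6 beside 4.32% and in other T cells 0 of 6 beside 18.4%. At an unadjusted p below 0.05 edgeR had 1, 1, 3 and 3 of the 6 genes in these classes, in the same order, and DESeq2 called 0 in each. Mutants against wildtype over both treatments had 0 of 6 called in each class and over all CD4 T cells, beside 0.0% of all genes, with 0 of 6 at an unadjusted p below 0.05 and 0 by DESeq2. Among the 6 genes, the single case in which the 4 DSS-treated and 4 untreated libraries did not overlap was Irf4 in Tfh-like cells. The share of all genes without such overlap was not measured, so this case is given as values only. For Irf4 in Tfh-like cells the DSS-treated libraries held 32.7, 30.8, 33.6 and 26.8 CPM and the untreated ones 37.3, 38.3, 35.8 and 53.8. These values rest on 15 to 58 UMIs a library. The edgeR difference was -0.49 ± 0.20 (adjusted p = 0.167). An exact two-sided permutation test gave p = 0.0286, the smallest that 4 against 4 libraries allow, and 0.686 after adjustment over 60 such tests. Groups that do not overlap always give this smallest p, so it adds nothing to the values. The Pbsn cluster, with an Irf4 median of 131 CPM, held 2.35% to 21.0% of the CD4 T cells in untreated libraries. In DSS-treated libraries it held 1.46% to 2.43%, and its part in this case was not tested.

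Genes of the surrounding pathways were counted in the comparison with DSS as well, where 19.5% of all genes were called. Over all CD4 T cells and both genotypes, the signalling list had 3 higher and 2 lower of 15, with Il6st at 0.56, Stat5b at 0.51, Tyk2 at 0.49 and Socs1 at -0.48. Among 15 partners and relatives of BATF and IRF4, 1 was higher and 3 lower, with Jund, an AP-1 partner, at -0.85 and Fosb at -0.54. Jund was also called in each class, between -0.83 and -0.75. The 5 stress genes summed to 3723 and 2027 CPM in the untreated mutants and to 476.2 to 1119 elsewhere, and their part in this list was not tested. Of 14 MAF- and BCL6-related factors, 2 were higher and 5 lower, with Id3 at -0.90 and Tbx21 at -0.82; the macrophage marker sums given with Maf differed between these libraries, and their part in the list was not tested. Of 12 Th17 genes outside the gate 0 were called, and of 11 follicular genes outside the gate 1 was higher, Slamf1 at 0.38, and 0 lower. In the order given, the 5 list medians were 0.05, -0.12, -0.10, -0.16 and -0.14, beside 0.008 over all genes. Class shares moved in the same libraries. The Foxp3-positive share of the CD4 T cells was 6.84% to 10.4% in untreated and 16.5% to 25.6% in DSS-treated libraries. Foxp3-positive cells were higher in Il6st and lower in Socs1 and Tbx21 than other T cells. The part of class shares in the list counts was not tested.

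By genotype, DSS in wildtype mice had 0 called genes in each of the 5 lists, where 0.271% of all genes were called, a share that leaves little to read from these counts. In mutants, where 4.99% of all genes were called, the signalling list had 2 higher and 2 lower, the last being Il6ra at -0.92 and Socs1 at -0.77. The partners had 0 higher and 1 lower, Jund at -1.08, and the MAF- and BCL6-related factors 0 higher and 2 lower, Id3 at -1.23 and Maff at -1.06. Of the follicular genes 0 were higher and 3 lower, Il6ra again, Sh2d1a, a signalling adaptor of follicular helper cells, at -0.57 and Tcf7 at -0.53 (median -0.30), and of the Th17 genes 0 were called. The Tfh-like share was 16.8% and 15.6% in untreated and 5.92% and 10.4% in DSS-treated mutants. The stress gene sums also differed between these libraries, and the part of either in the lists was not tested. Within Tfh-like cells, DSS over both genotypes had 0 of 11 follicular genes called. The test of the difference between the genotypes' effects, which called 0.0% of all genes, called 0 in each of the 5 lists.

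Genes whose levels ran most like each member were ranked over 32 class sums (4 classes in 8 libraries) among 5205 genes with a mean of at least 20 CPM, by Pearson's r of log2(CPM + 1). The sums share libraries and depth, so r is a description. Nearest to Irf4 were Nebl (r = 0.85), Atf6 (0.83) and Txnrd1 (0.83), and nearest to Maf were Mxi1 (0.85), Ubl3 (0.842) and Icos (0.83). Bcl6 ran with Prkcq (0.882), Tspan3 (0.825) and Pou6f1 (0.809), and Il21 with Ext1 (0.862), Adprm (0.855) and Tespa1 (0.833). For Batf the first was Ipmk (0.784) and for Stat3 Zfp36l1 (0.793).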

How the data were processed

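Single-cell RNA sequencing by the 10x 3′ method gave the deposited tables of raw UMI counts per gene and cell, which the authors made with Cell Ranger 3.1.0 and mm10, with Seurat 4.0.1 also named, per the submitters' processing notes. The deposited cell list kept 27420 of 100673 barcodes, and 0 of the kept cells lacked a Cd4 UMI. Row order was checked against the gene identifiers: 30468 of 30934 identifiers found in a reference table carried the listed symbol (98.5%), and row sums correlated with a table holding identifiers at r of at least 0.975. The number of sample columns not matched to a sample was 0.

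Cells were clustered in scanpy 1.11.5 (counts scaled to 10000 a cell, 2000 variable genes of which 1808 stayed, 30 principal components, 15 neighbours, leidenalg 0.10.2 at resolution 1). Left out of the variable genes were the 6 genes, the gate genes, Ifng, Il10 and Gzmb. T cell receptor V, D and J genes and immunoglobulin, mitochondrial, haemoglobin and sex-linked genes were left out too. Of 20 clusters, the 9 whose mean of T cell genes reached 50% of the highest were kept as T cells. No doublet caller was run. An alternative left out the 5% of all kept cells of each library with most UMIs, which left 20375 of the 20742 CD4 T cells. UMIs were summed per library and class (at least 20 cells) and tested with edgeR 4.0.16 (quasi-likelihood, TMM, filterByExpr; R 4.3.3) and Benjamini-Hochberg adjustment over all genes tested, called at 0.05. Classes were fitted with the library as a term. Groups were fitted as 4 means over 8 libraries, and factors over both levels of the other as additive terms. An SE is the log2 fold change over the square root of F, and 95% intervals use the fit's degrees of freedom. DESeq2 1.42.0 was an alternative, as were other gates, filters, scalings and leaving out each library. Exact permutation tests cannot go below 0.333 for 2 against 2 libraries or 0.0286 for 4 against 4. Intervals and shares of cells cover counting and library spread only.

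On simulated counts of 11063 genes for DSS in wildtype mice, edgeR recovered 17 of 100 genes changed 1.5-fold and 86 of 100 changed 2-fold, with 6 false calls. For DSS over both genotypes it recovered 57 and 100, with 8 false calls. For Th17 against other T cells (8678 genes) it recovered 93 and 100, with 7 false calls. The simulation assumed the same spread for every gene and, apart from the changed genes, the same expected profile in every library. Only genes above a minimum level were changed. These figures are therefore not the power of the tests on the measured libraries.

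The 6 genes were named in every comparison. Up to 4 called genes of each list with the largest fold change, and the 3 genes most like each member, could be named. The members, lists and gates were chosen with earlier results of these data known. Promoter sequences are from RefSeq (GRCm38.p6), where 5 of the 6 genes matched by symbol.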

Additional observations from a re-analysis of the deposited data

How the results depend on the processing

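The sample titles share no number between groups, and the labels do not say that nearby numbers pair the mice. After the data were seen, wildtype and mutant libraries of 1 treatment with the nearest numbers were fitted as a replicate block, which DSS comparisons cannot carry because each pair lies within a treatment. The correlation of deviations within these pairs, over 11063 genes, was 0.139 in untreated and 0.065 in DSS-treated mice. With the block 1 of the 6 genes, Il21, was called for mutants in untreated mice, in place of 0, and 0 in the other mutant comparisons and the interaction. Over all genes the block called 19 for mutants in untreated mice, 1 for mutants over both treatments in other T cells and 0 in each other comparison it was fitted to. Of 466 alternative values of single genes, 423 kept their direction and side of the threshold, 30 lost the call, 5 gained it, 2 turned direction and 6 were thinned shares that moved. Of 331 alternative counts of called genes among the 6, 297 stayed within 1.5 times. The 2 that turned were Stat3 in Th17 against other T cells with narrower Th17 and Tfh-like gates (-0.10) and Il21 for DSS in wildtype mice without untreated wildtype replicate 2 (0.15, the highest of a leave-one-out range that begins at -0.42). The cause was not tested for any of these.

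The narrower gates, which changed both classes and the other T cells at once, left 1 called gene in Th17 against other T cells, in place of 4. Th17 against Foxp3-positive cells had 4 called, in place of 2, with gates at 3 UMIs and Foxp3 at 2, with library totals without TMM, and without the 5% of cells with most UMIs. Without the low-count filter, counts were 1 for DSS in wildtype mice, 2 for DSS in mutants, 1 for mutants in untreated mice, 1 for the interaction, and 1 for DSS over both genotypes in each of the 4 classes. Library totals without TMM gave 1 for DSS in Foxp3-positive and 1 in other T cells. Leaving out cells with markers of other types gave 1 for DSS in Tfh-like cells, and gates at 1 UMI gave 2 in other T cells. Leaving out each library gave 2 to 4 for Tfh-like against other T cells, 0 to 1 for DSS in mutants, and, for DSS over both genotypes, 0 to 2 over all CD4 T cells, 0 to 1 in Th17, 0 to 1 in Foxp3-positive, 0 to 2 in Tfh-like and 0 to 1 in other T cells. A lone library left in a group was assumed to vary like the other groups.

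Counts over all genes moved as well. The narrower gates took Th17 against other T cells from 1901 to 891, Th17 against Foxp3-positive from 2744 to 1219 and Tfh-like against Th17 from 2381 to 1439. DSS in wildtype mice had 30 calls, 842 without the filter, 206 by DESeq2 and 0 to 126 leaving out a library. DSS in mutants had 552, 1613 without the filter, 343 without the Pbsn cluster, 153 with only the 4 libraries compared and 0 to 558 leaving out a library. Mutants against wildtype had 0 calls in each comparison at 578 (untreated), 194 (after DSS), 436 (interaction) and 281 (over both treatments) genes with an unadjusted p below 0.05. Without the filter these became 145, 33, 73 and 93, and DESeq2 called 17, 0, 0 and 0. For the same factor within classes the unfiltered counts were 43 in Th17, 21 in Foxp3-positive, 28 in Tfh-like and 60 in other T cells. DSS over both genotypes had 389 calls in Th17 cells (711 unfiltered, 82 with the narrower gates, 620 with gates at 1 UMI), 972 in Foxp3-positive cells (472 with gates at 3 UMIs and Foxp3 at 2) and 336 in Tfh-like cells (524 unfiltered, 180 by DESeq2, 658 with gates at 1 UMI, 70 with the narrower gates). Leaving out a library gave 742 to 2411 calls over all CD4 T cells (2161 with all libraries), 48 to 436 in Th17 cells, 430 to 1013 in Foxp3-positive cells, 113 to 578 in Tfh-like cells and 669 to 1920 in other T cells (1805 with all libraries).

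Leaving out clusters with at least 3 stress genes among their leading genes was not run because no cluster met it. The alternatives without TMM and without the Pbsn cluster, which has Hspa1a and Hspa1b among its 10 leading genes, were added after the data were seen. With 3 to 23 Il21 UMIs a library in Foxp3-positive cells and 15 to 58 Irf4 UMIs in Tfh-like cells, differences between groups within classes were weakly resolved.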

Other observations

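Levels of the 6 genes outside the T cells, and in the dividing T cells, are given here as values. Of the 27420 kept cells, 0 lacked a Cd4 UMI. T cell genes averaged 52.6 CPM in the macrophage-like cluster, 210 in the one led by Il22 and 147.5 in the one led by Igkc. In the T cell clusters they averaged 424.7 to 554.4 CPM. The part of T cell RNA in the levels outside the T cells was not tested. In the macrophage-like cluster led by Ccl8 and C1qb (2900 cells), Maf had a median of 345 CPM over libraries (261 to 442), Stat3 434 (289 to 586) and Il21 1.66 (0.0 to 3.88). A cluster led by Il22 and Ccdc184 (427 cells), whose T cell genes were below the limit for T cells, held Stat3 at 953 CPM (730 to 1128) and Maf at 634 (363 to 968). The plasma cell genes Igkc and Jchain led a cluster of 415 cells in which Irf4, a factor that plasma cells need, was at 54.9 CPM (26.5 to 95.4) and Bcl6, which plasma cells switch off, at 8.91 (0.0 to 23.6). In the cluster of dividing T cells led by Hist1h1b and Birc5 (1475 cells), Stat3 was at 429 CPM (319 to 477) and Maf at 757 (641 to 929).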
